A study of Mus musculus with 4 samples.

Results

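The genes described here are 6 proneural basic helix-loop-helix (bHLH) transcription factors, *Neurog1*, *Neurog2*, *Neurod1*, *Neurod4*, *Nhlh1* and *Nhlh2*, taken by name from tables that list 46983 genes in the embryonic mouse larynx. The tables come from bulk RNA-seq of dissected larynx tissue at E10.5 (32 to 35 somites), with 2 *Shh-/-* pools (numbered 1 and 2) and 2 wild-type (WT) pools (numbered 4 and 6), each made from 3 larynxes. WT embryos were Swiss Webster, and the mutant line carries the Shhtm1amc null allele, kept on the same outbred background. The series' design text gives the mutant embryos as *Shh-/-*, while the sample labels write that allele as Shh+/-, and *Shh-/-* is used here. The null allele is present in every cell of the embryo, and the 3 larynxes of a pool cannot be told apart. *Shh* transcripts measured 10.4 and 10.8 TPM in mutant pools 1 and 2, against 23.7 and 42.1 TPM in WT pools 4 and 6 (TPM is a gene's share of the library's transcripts, corrected for transcript length and scaled to a sum of 1000000). The table gives 1 value for the whole gene, so RNA from parts outside a deletion is included. *Ptch1*, the receptor gene that Hedgehog signaling induces, measured 12.9 and 13.8 TPM in the mutant and 57.8 and 55.1 TPM in WT.

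Proneural bHLH proteins start and drive the making of neurons. Neurogenins (*Neurog1*, *Neurog2*) commit progenitors to a neuronal fate and induce the NeuroD genes (*Neurod1*, *Neurod4*) and the NSCL genes (*Nhlh1*, *Nhlh2*), which act in newly born neurons. They work as dimers with E proteins on the DNA sequence CANNTG, the E-box. Id proteins bind the E proteins and withhold them, and Hes and Hey repressors, many of them induced by Notch, hold the proneural genes down. In the head and neck of the embryo these genes are known from the placodes and neural crest that give rise to the cranial ganglia, with *Neurog2* in the epibranchial placodes beside the pharynx and *Neurog1* mostly in the placodes of the trigeminal and inner ear ganglia.

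The E-box letters that this protein family reads were looked for in the RefSeq promoter windows of the 6 genes (GRCm38.p6, 300 bases each, ending shortly after the annotated start). Windows were found for all 6 genes, with 2 for *Neurod4* and 1 for each of the others. CAGATG (read as CATCTG on the other strand) was present in the windows of *Nhlh1* and *Nhlh2*, CATATG in that of *Neurod1*, and CAGCTG in those of *Nhlh2* and *Neurod4*. CATATG and CAGCTG read the same on both strands. The 3 matches that lie outside annotated exons are printed from 5′ to 3′ on the gene's strand with the E-box in capitals, because E-boxes of this kind are what the proneural proteins bind.
Nhlh1 (chr1:172057764-172057829, minus strand): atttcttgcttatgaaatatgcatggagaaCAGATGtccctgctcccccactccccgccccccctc
Nhlh2 (chr3:102009988-102010053, plus strand): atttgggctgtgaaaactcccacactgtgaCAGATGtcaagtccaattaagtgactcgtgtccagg
Neurod1 (chr2:79456843-79456886, minus strand): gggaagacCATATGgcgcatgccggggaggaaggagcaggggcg
The E-box ends 197 bases before the RefSeq start in *Nhlh1*, 121 bases before it in *Nhlh2* and 236 bases before it in *Neurod1*. Such matches are common, since CAGATG was present in 17.2%, CATATG in 3.91% and CAGCTG in 16.3% of all 32851 windows, and at least 1 of the 3 in 33.4% of them, against 4 of the 6 genes. The windows of *Neurog1* and *Neurog2* held none of the 3. The GLI-type letters TGGGTGGTC (GACCACCCA on the other strand) were in 0 of the 6 genes' windows and in 0.253% of all windows. A match describes these letters only, and these libraries measured no binding.

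Each of the 6 genes was higher in both *Shh-/-* pools than in both WT pools. Of the 16972 genes with a mean of at least 1 TPM over the 4 pools, 38% showed that order and 22.7% the opposite one. The 6 genes were selected on this difference in TPM between the genotypes, so these values are a description and no test is used for them. The lower *Shh-/-* pool exceeded the higher WT pool by 4.80 times for *Neurog1* and by up to 11.0 times for *Nhlh1*. On the log2(TPM + 1) scale, which understates changes of low genes, the median difference between the genotypes over the 6 genes was 3.04, against 0.08 over all 16972 genes. Each of the 6 differed by at least 1 on that scale (1.73 for *Neurog1* to 3.85 for *Neurog2*), as 3.64% of all genes did. All 6 genes passed the filter on low values, and they did so through the *Shh-/-* pools, since 2 of the 6 in WT pool 4 and 5 of the 6 in WT pool 6 were below 1 TPM. In whole tissue, fewer cells of a type and less RNA per cell cannot be told apart.

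**Figure D1:**
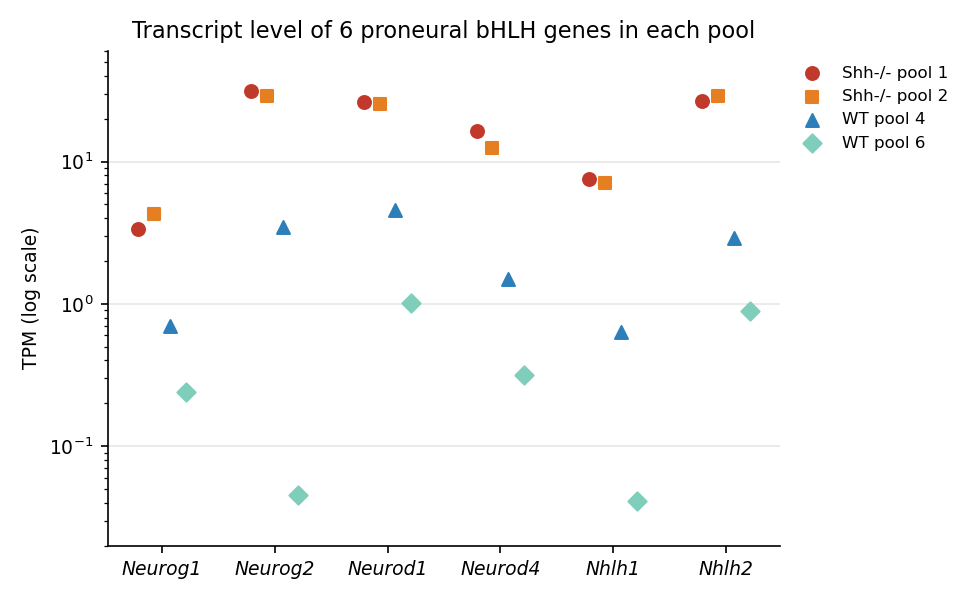
TPM (log axis) of the 6 proneural bHLH genes, with 1 point for each of the 4 pools. The *Shh-/-* points lie above both WT points for every gene, and the WT pools are themselves apart, most of all for *Neurog2* (3.45 and 0.0453 TPM).

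Among the neurogenins, *Neurog2* was the most abundant of the 6 genes in mutant larynx. *Neurog2* (ENSMUSG00000027967.8, mm10 chromosome 3, 127633135 to 127635631) reached 31.4 and 28.7 TPM in mutant pools 1 and 2, against 3.45 and 0.0453 TPM in WT pools 4 and 6. The 2 mutant pools were close to each other, whereas WT pool 4 was 76.0 times WT pool 6. The mutant mean was 30.04 ± 1.90 TPM (SD, n = 2), and the WT mean of 1.75 ± 2.41 TPM (SD, n = 2) had an SD larger than itself. The ratio of these means was 17.2. *Neurog1* (ENSMUSG00000048904.4, chromosome 13, 56250505 to 56252163) was the scarcest of the 6 in mutant larynx, at 3.33 and 4.31 TPM, with 0.693 and 0.240 TPM in WT pools 4 and 6. Its mutant mean was 8.19 times its WT mean. The third gene of the family, *Neurog3*, known from the endocrine pancreas, was listed at 0 in 3 pools and at 0.0626 TPM in *Shh-/-* pool 2.

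The NeuroD genes act after the neurogenins. *Neurod1* (ENSMUSG00000034701.9, chromosome 2, 79452521 to 79456751) stood at 26.3 and 25.5 TPM in mutant larynx and at 4.53 and 1.02 TPM in WT larynx. Both mutant pools lay far above WT, and *Neurod1* was the most abundant of the 6 genes in each WT pool. Its mutant pools had the smallest relative spread of the 6 genes (25.9 ± 0.576 TPM, SD, n = 2), whereas the WT mean was 2.77 ± 2.48 TPM (SD, n = 2). *Neurod4* (ENSMUSG00000048015.3, chromosome 10, 130268153 to 130280240) stood at 16.3 and 12.5 TPM in the mutant, with 1.51 and 0.315 TPM in WT. The mutant mean was 9.33 times the WT mean for *Neurod1* and 15.8 times for *Neurod4*. *Neurod2* and *Neurod6*, family members of later forebrain neurons, were listed at 0 in all 4 pools.

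The NSCL genes encode small bHLH proteins of young neurons. *Nhlh2* (ENSMUSG00000048540.8, chromosome 3, 102010076 to 102015492) measured 26.5 and 28.7 TPM in mutant pools 1 and 2, and 2.89 and 0.884 TPM in WT pools 4 and 6. It was the only one of the 6 besides *Neurog1* that was higher in mutant pool 2 than in pool 1. *Nhlh1* (ENSMUSG00000051251.3, chromosome 1, 172052292 to 172057573) measured 7.59 and 7.03 TPM in the mutant, and 0.638 and 0.0410 TPM in WT. The mutant mean was 14.6 times the WT mean for *Nhlh2* (27.6 ± 1.55 against 1.89 ± 1.42 TPM, SD, n = 2 each). For *Nhlh1* it was 21.5 times (7.31 ± 0.397 against 0.339 ± 0.422 TPM, SD, n = 2 each), the largest ratio of means of the 6. In GENCODE M21 the coding sequence of each of the 6 genes lies in 1 exon, *Neurog1* being a gene of a single exon, and *Nhlh2* is the only one with more than 1 annotated transcript (3).

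The depth behind these values was read from the tables, since 5 of the 6 genes have 1 transcript and StringTie coverage times exon length gives aligned bases. With reads of 75 nt, *Neurog2* rested on about 613 and 1327 reads in the *Shh-/-* pools, 146 in WT pool 4 and 2 in WT pool 6. The 2 reads allow 0.00549 to 0.164 TPM (exact Poisson 95% interval, counting error only), which stays far below the 2.92 to 4.06 TPM of WT pool 4. *Nhlh1* also rested on 2 reads in WT pool 6 (0.00496 to 0.148 TPM) and on 30 in WT pool 4. *Neurog1* had 48 and 149 reads in *Shh-/-* and 22 and 8 in WT, so the intervals of its 2 WT levels overlapped (0.438 to 1.06 and 0.105 to 0.480 TPM). *Neurod1* and *Neurod4* were better covered in WT, with 235 and 55 reads for *Neurod1* and 96 and 21 for *Neurod4*. *Shh-/-* pool 1 was the shallowest library, with about 18300000 aligned reads against 37900000 to 41700000 in the other 3 pools.

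The 2 WT pools differed from each other in the same direction for all 6 genes. The ratio of WT pool 4 to WT pool 6 was 76.0 for *Neurog2* (exact 95% counting interval 20.7 to 634), 15.6 for *Nhlh1* (3.95 to 134), 4.78 for *Neurod4* (2.96 to 8.07) and 4.46 for *Neurod1* (3.31 to 6.09). It was smaller for *Nhlh2* (3.26) and *Neurog1* (2.89, interval 1.24 to 7.51). These are single pools, so no test across samples is possible. Of all 16972 genes, 55.5% were higher in WT pool 4 and 2.1% were higher by at least 1 on the log2(TPM + 1) scale, which 3 of the 6 genes were (*Neurog2*, *Neurod1* and *Nhlh2*). The median difference between the WT pools on that scale was 0.99 over the 6 genes and 0.03 over all genes. WT pool 6 had the highest RNA integrity number of the series (9.0, against 7.7 to 8.0) and the most RNA (310 ng against 200 to 260 ng), and their part in the difference was not tested. The *Shh-/-* pools were closer together, with a median difference of 0.07 (pool 1 minus pool 2) and ratios between 0.772 for *Neurog1* and 1.304 for *Neurod4*.

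The make-up of the summed level was alike in 3 of the 4 pools. The 6 genes together came to 111.4 and 106.7 TPM in *Shh-/-*, 13.7 TPM in WT pool 4 and 2.54 TPM in WT pool 6. *Neurog2* took 28.2 and 26.9% of that sum in the *Shh-/-* pools and 25.2% in WT pool 4, but 1.78% in WT pool 6. *Neurod1* rose in share as the sum fell, from 23.6 and 23.9% in *Shh-/-* to 33.0% in WT pool 4 and 39.96% in WT pool 6. *Neurod4* kept between 11.0 and 14.6% in every pool. In levels, *Neurog2* exceeded *Neurog1* by 9.43 and 6.65 times in *Shh-/-* and by 4.97 times in WT pool 4, whereas in WT pool 6 it was at 0.189 of *Neurog1*. The order in both *Shh-/-* pools ran *Neurog2*, *Nhlh2*, *Neurod1*, *Neurod4*, *Nhlh1* and *Neurog1*. The lower *Neurog2* pool and the higher *Nhlh2* pool were both at 28.7 TPM, so these neighbours were not separated by their spread, while the steps from *Neurod1* down to *Neurod4*, *Nhlh1* and *Neurog1* were wider than the spread between the mutant pools. *Nhlh2* (26.5 and 28.7 TPM) and *Neurod1* (26.3 and 25.5 TPM) lay closer to each other in the mean than the 2 mutant pools of *Nhlh2* did. In WT, *Neurod1* was first and *Nhlh1* last in both pools, and *Neurog2* moved from the second place in WT pool 4 to the fifth in WT pool 6. Read depth did not resolve the lowest WT places. In WT pool 6 *Nhlh1* and *Neurog2* rested on 2 reads each. In WT pool 4 the counting intervals of *Nhlh1* (0.433 to 0.916 TPM) and *Neurog1* (0.438 to 1.06 TPM) overlapped.

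**Figure D2:**
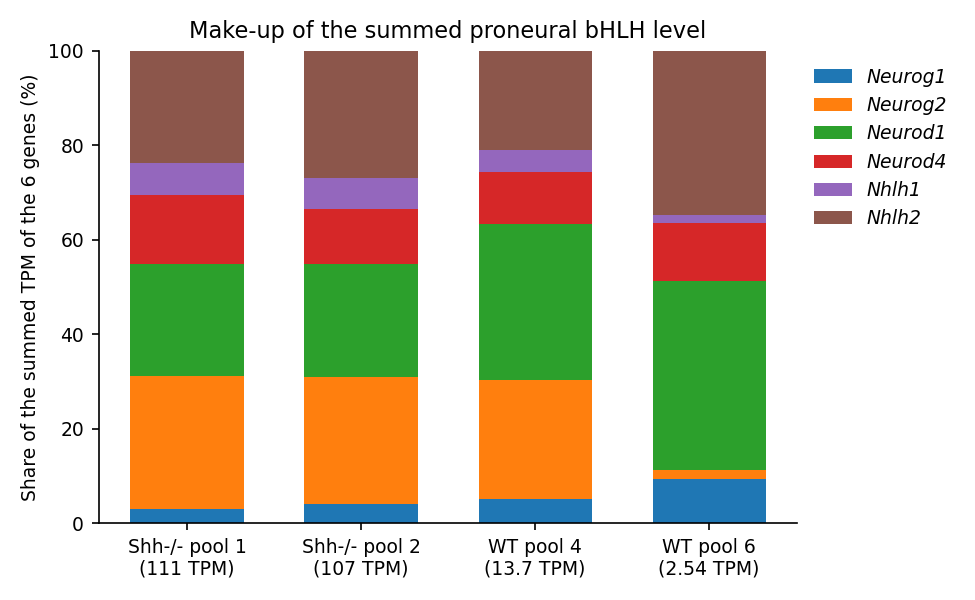
Share (%) of the summed TPM of the 6 proneural bHLH genes that each gene took, in 1 bar per pool, with the sum in TPM under the bar. *Neurog2* takes 25.2 to 28.2% in 3 pools and 1.78% in WT pool 6.

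The other neural bHLH genes, the dimer partners and the inhibitors were compared by limma (a linear model that shares the estimate of the spread across genes) on log2(TPM + 1), with Benjamini-Hochberg adjustment over all 16972 genes. At an adjusted p under 0.05 it called 0.725% of all genes (0.56% as higher and 0.165% as lower in the mutant). The 6 proneural genes were part of that fit and 2 of them (*Nhlh1* and *Nhlh2*) are among its 123 calls, from which nothing is read because the difference chose them. With *Shh-/-* pool 1, *Shh-/-* pool 2 or WT pool 4 left out, 0 genes in all were called. Without adjustment 24.8% were under 0.05. Nothing in the labels says that the pools came from separate litters, so p-values measure the spread between these pools only. Of 14 other neural bHLH genes, 12 had a mean under 1 TPM, among them *Neurog3*, *Atoh1*, *Atoh7*, *Olig1*, *Olig2* and *Olig3* (at most 0.319 TPM in any pool). Limma called 0 of the 2 tested, and 1 had an unadjusted p under 0.05. That gene was lower in both mutant pools than in both WT pools. *Bhlhe22* measured 0.729 to 1.57 TPM in the 4 pools (log2 difference 0.36, SE 0.24, limma adjusted p = 0.390).

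The E proteins, with which the 6 factors pair, were abundant in both genotypes, and limma called 0 of the 3 genes (2 at an unadjusted p under 0.05). *Tcf3* measured 208.2 and 182.3 TPM in the mutant and 156.3 and 126.2 TPM in WT (log2 difference 0.47, SE 0.14, limma adjusted p = 0.152), and even in the mutant the 6 proneural genes together (109.0 ± 3.31 TPM, SD, n = 2) stayed below *Tcf3* alone. *Tcf12* had a log2 difference of -0.43 (SE 0.12, limma adjusted p = 0.139) and *Tcf4* one of 0.26 (SE 0.33, limma adjusted p = 0.640), which was -0.20 without WT pool 6. Of 12 Id, Hes, Hey and related inhibitors 9 were tested, and limma called 0 (5 at an unadjusted p under 0.05). The lowest p values were those of *Hey2* (16.5 and 16.5 TPM in the mutant, 8.31 and 9.52 TPM in WT, limma adjusted p = 0.0849), *Heyl* (limma adjusted p = 0.0895) and *Id3* (limma adjusted p = 0.108), with log2 differences of 0.82, 0.81 and 0.49. The median log2 difference was 0.36 for the 9 inhibitors. That of the 6 proneural genes was 3.04, but these were chosen on this difference, so nothing is read from the gap between the medians.

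Genes known to act downstream of proneural factors were higher in the mutant, and part of them passed the adjusted threshold. All 14 listed targets were tested, and limma called 4 as higher and 0 as lower, with a median log2 difference of 1.29. Over all genes it called 0.56% as higher and 0.165% as lower. By point value all 14 were higher, as were 9895 of all 16972 genes. For 13 of the 14 both mutant pools lay above both WT pools, against 38% of all genes. *Ebf2* and *Ebf3*, transcription factors of newly born neurons, rose by log2 2.32 (SE 0.18) and 1.87 (SE 0.14), both at a limma adjusted p of 0.0323, *St18* by 2.41 (SE 0.26, limma adjusted p = 0.0463) and *Mfng*, which encodes a fringe enzyme that modifies Notch, by 1.61 (SE 0.18, limma adjusted p = 0.0478). *Ebf2* rose from 2.23 and 1.94 TPM in WT to 15.5 and 13.4 TPM, and unlike the 6 proneural genes its WT pools lay close together. The Notch ligand gene *Dll1*, which neurogenins induce, measured 14.7 and 9.88 TPM in the mutant and 7.17 and 3.15 TPM in WT (log2 difference 1.17, SE 0.38, limma adjusted p = 0.164). The 4 calls were lost with any 1 of the 4 pools left out. The median log2 difference over the 14 targets was then 1.148 (without *Shh-/-* pool 1) to 1.503 (without WT pool 4).

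**Figure D3:**
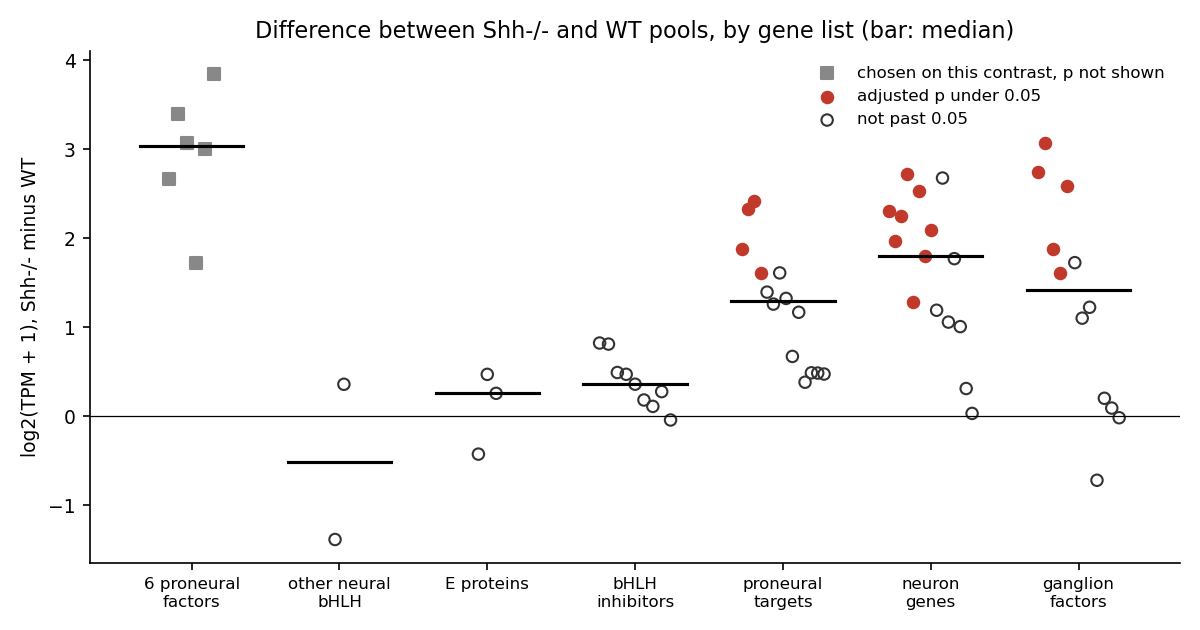
Difference in log2(TPM + 1) between *Shh-/-* and WT pools for each tested gene of 7 lists, with the median as a bar, filled where the limma adjusted p was under 0.05 and grey squares for the 6 proneural genes, whose p is not shown because they were chosen on this difference. Other calls are in the last 3 lists, and the medians of these are 1.29, 1.80 and 1.42, against 3.04 for the 6 genes.

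Of 15 genes of differentiated neurons, all tested, limma called 8 as higher and 0 as lower in *Shh-/-*, with a median log2 difference of 1.80. Over all genes limma called 0.56% as higher and 0.165% as lower. By point value all 15 were higher, as were 9895 of all 16972 genes. *Tubb3*, the neuronal tubulin gene, rose from 37.6 and 21.5 TPM in WT to 184.3 and 203.4 TPM (log2 difference 2.72, SE 0.27, limma adjusted p = 0.0422). *Nhlh1* differed by 2.67 on the same scale, but from a far lower WT level. On log2(TPM + 0.1) the differences were 2.76 for *Tubb3* and 4.52 for *Nhlh1*. The microtubule regulators *Stmn2* and *Stmn3*, the intermediate filament genes *Ina*, *Nefl* and *Prph*, the RNA-binding protein gene *Elavl3* and the growth cone gene *Gap43* rose by log2 1.28 (*Gap43*) to 2.53 (*Nefl*). The calls were lost with any 1 pool left out. The median log2 difference over the 15 genes was then 1.663 (without *Shh-/-* pool 2) to 2.002 (without *Shh-/-* pool 1).

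Of 14 factors and receptors of the cranial placodes and ganglia, 12 were tested. Limma called 5 as higher and 0 as lower in the mutant, with a median log2 difference of 1.42. Over all genes the shares called were 0.56% as higher and 0.165% as lower. By point value 10 of the 12 were higher and 2 lower, and for 1 of the lower genes both mutant pools lay below both WT pools. Of all 16972 genes, 9895 were higher by point value. The placode gene *Eya2* rose by log2 1.61 (SE 0.17, limma adjusted p = 0.0449), and the neurotrophin receptor gene *Ntrk2* by 1.88 (SE 0.19, limma adjusted p = 0.0448). *Tlx3*, a homeobox gene of sensory neurons, rose from 0.740 and 0.165 TPM to 12.6 and 9.54 TPM (log2 difference 3.07, SE 0.28, limma adjusted p = 0.0412), a level and a difference near those of *Neurod4*. *Phox2a*, a homeobox gene of epibranchial and autonomic neurons, rose from 4.23 and 1.99 TPM to 22.3 and 23.2 TPM (log2 difference 2.59, SE 0.30, limma adjusted p = 0.0493). These calls were lost with any 1 pool left out. The median log2 difference over the 12 genes, higher and lower ones together, was then 1.298 (without WT pool 6) to 1.594 (without WT pool 4).

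Between the pools of 1 genotype, the median gap in WT was wider for the 6 proneural genes than for the lists around them, while single genes overlapped. The median of WT pool 4 minus WT pool 6 was 0.99 on the log2(TPM + 1) scale for the 6 genes, 0.28 for the proneural targets, 0.27 for the neuron genes and 0.19 for the ganglion factors. For neural crest and glial markers, described below, it was 0.50. Gene by gene, the gap ran from 0.45 to 2.09 in the 6 genes and from 0.03 to 1.45 in the targets. It ran from -1.03 to 1.02 in the neuron genes and from -0.49 to 0.81 in the ganglion factors. All 14 targets were higher in WT pool 4, as were 12 of 15 neuron genes and 8 of 12 ganglion factors. Of all genes, 55.5% were higher in that pool, so nothing is read from the ganglion count, which is near this share. No test of these differences is possible with 1 pool on each side.

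**Figure D4:**
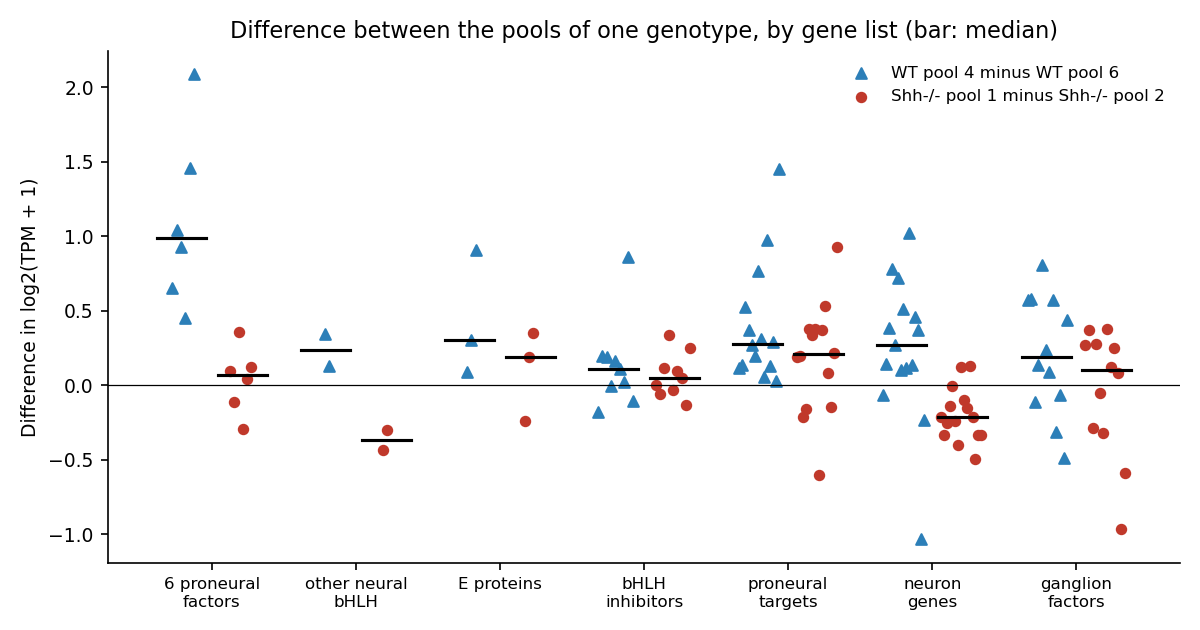
Difference in log2(TPM + 1) between the 2 WT pools (triangles) and between the 2 *Shh-/-* pools (circles) for each tested gene of the 7 lists, with medians as bars. The WT triangles of the 6 proneural genes are all above 0 with a median of 0.99, while the mutant circles lie around 0.07.

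The 5 other genes whose pattern over the 4 pools was most like the mean pattern of the 6 included genes of the neuronal cytoskeleton. Likeness was the root mean square distance between profiles of log2(TPM + 1), each centred on its own mean, over 4 libraries. The nearest were *Nefm* (distance 0.16), a neurofilament gene, at 221.8, 246.4, 51.3 and 24.8 TPM in *Shh-/-* pools 1 and 2 and WT pools 4 and 6, then *Ctxn3* (0.17) and *Tubb3* (0.17). *Pax8* (0.21), a paired-box gene of thyroid, kidney and otic placode, followed at 14.8, 9.56, 1.43 and 0 TPM, and then *Phox2a* (0.21). Within the group itself, *Neurod1* (0.13) and *Neurod4* (0.14) lay closest to the mean pattern, and *Neurog2* (0.57) and *Neurog1* (0.67) lay farthest from it. These distances depend on the scale and on depth. The log2 difference of the scarce *Neurog1* was 1.73 here and 2.905 with a pseudocount of 0.1. *Neurog2* rests on 2 reads in WT pool 6.

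Markers of other cells the dissected tissue could hold were measured in the same pools. The neural tube genes *Wnt1*, *Dbx1*, *Dbx2* and *En1* were listed at 0 in every pool and *Sox1* reached 0.0102 TPM in 1 pool. The summed level of 12 central nervous system progenitor markers was 30.4 to 33.4 TPM in *Shh-/-* and 33.1 to 45.7 TPM in WT. Limma called 1 of the 5 tested as lower and 0 as higher, while by point value 3 were higher and 2 lower. Neural crest and glial markers summed to 170.5 to 211.0 TPM in *Shh-/-* and 116.2 to 148.9 TPM in WT. Limma called 1 of the 8 tested as higher (*Ngfr*), and 5 had an unadjusted p under 0.05. By point value 7 of the 8 were higher and 1 lower. Muscle markers summed to 132.8 to 151.1 against 60.9 to 66.3 TPM (*Myh6* and *Myh7* called as higher of 8, 7 higher and 1 lower by point value). Endothelial markers summed to 234.8 to 264.5 against 150.8 to 154.1 TPM (*Tie1* called as higher of 5, all 5 higher by point value). Mesenchyme markers summed to 1004 to 1112 against 796.3 to 809.2 TPM, with *Twist1* called as higher of 8. By point value 6 of these 8 were higher and 2 lower in the mutant. The lower ones were *Foxf1* (0.848 and 9.57 against 72.3 and 64.6 TPM, log2 difference -3.97, limma adjusted p = 0.0976) and *Tbx5* (1.22 and 4.71 against 19.4 and 12.6 TPM, log2 difference -2.23, limma adjusted p = 0.106). Limma called 0 of 13 foregut epithelium markers, which summed to 679.7 to 785.0 TPM in *Shh-/-* and 709.0 to 731.4 TPM in WT, and 4 had an unadjusted p under 0.05. The 3 with the lowest p were lower in both mutant pools, namely *Foxa2* (5.34 and 9.12 against 29.2 and 39.8 TPM, log2 difference -2.13, limma adjusted p = 0.0602), *Nkx2-1* (6.16 and 3.61 against 15.9 and 17.9 TPM, log2 difference -1.64, limma adjusted p = 0.0715) and *Foxa1* (14.5 and 15.6 against 25.6 and 37.8 TPM, log2 difference -1.004, limma adjusted p = 0.102), and the fourth, *Krt8*, was higher (124.3 and 107.6 against 84.0 and 86.5 TPM, log2 difference 0.44, limma adjusted p = 0.128). Limma called 0 of 7 erythroid and 0 of 5 macrophage markers (0 at an unadjusted p under 0.05 in either). Over all 16972 genes limma called 0.725%, 24.8% had an unadjusted p under 0.05, and 9895 genes were higher by point value. Each of the 6 marker genes called here lost its call with any 1 pool left out. The part of these other cells in the levels of the 6 proneural genes was not tested.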

How the data were processed

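Poly(A) RNA-seq of 4 pools of E10.5 mouse larynx was analysed. Per the labels and the study's methods, the authors aligned reads to mm10 with HISAT2 2.1.0 and quantified genes with StringTie 1.3.6. The deposited tables hold mean read coverage (not normalized between libraries), FPKM values and TPM values (FPKM scaled by the authors' tool to 1000000 per library). They hold no read counts, so a low value carries little depth. A listed 0 can be a failed estimate. TPM values of rows sharing a gene ID were added, and genes averaging 1 TPM or more were compared on the log2(TPM + 1) scale with limma 3.58.1 in R 4.3.3 (lmFit, eBayes with trend, no covariates, Benjamini-Hochberg adjusted p under 0.05). *Shh-/-* and WT groups follow the sample titles.

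Aligned reads were derived from coverage, FPKM and GENCODE M21 exon lengths with a read length of 75 nt, at which 27.6 to 31.6% of low genes gave whole reads (within 0.02), against at most 20.6% at any other length. The resulting counts per gene are estimates, and their intervals (95%, exact) cover counting error only. The 6 genes, the gene lists and the tests were chosen with earlier results of these data known. Named genes are the 6 factors, genes of each list past the threshold (for the 6 lists of the bHLH network at least the 3 with the lowest p), the 5 nearest profiles, *Shh* and *Ptch1*. *Dll1*, *Foxf1*, *Krt8*, *Neurod2*, *Neurod6*, *Tbx5* and the neural tube genes at or near 0 were named in addition after their values were seen. Lists of other cell types are given by counts, sums and called genes. For foregut epithelium the genes with the lowest p are also given, and for mesenchyme the lower genes. Some genes that this rule names are not reported here. The limma script was tested on simulated data. Alternatives were a pseudocount of 0.1, a filter at 5 TPM or none, quantile normalization, FPKM, median centring, eBayes without trend, a correction for GC content and transcript length (16887 genes) and each pool left out in turn.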

Additional observations from a re-analysis of the deposited data

How the results depend on the processing

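All 6 proneural genes kept a higher level in *Shh-/-* under every alternative that was run, apart from the filter at 5 TPM, where *Neurog1* and *Nhlh1* were not tested. The median log2 difference of 3.04 became 4.07 with a pseudocount of 0.1 and lay between 2.55 (FPKM) and 3.17 (GC content and length correction) under the other settings. Leaving out 1 pool gave 2.47 (without WT pool 6) to 3.64 (without WT pool 4), so the size of the difference depends on which WT pool is used. For *Neurog2* alone that range was 2.80 to 4.89, and with a pseudocount of 0.1 its difference was 5.39, as its value in WT pool 6 rests on 2 reads. Median centring moved the median of all genes from 0.08 to -0.05 and that of the 6 genes to 2.91. The number of called genes was 123 of 16972, 69 with a pseudocount of 0.1, 0 of 28524 without a filter (5011 at an unadjusted p under 0.05 in limma) and 0 to 16 with 1 pool left out (16 without WT pool 6, 0 without each of the others). The cause of the loss without a filter was not tested. Calls among proneural targets went from 4 to 2 with a pseudocount of 0.1 and 0 without a filter. Those among neuron genes went from 8 to 5 and 0 under the same settings and to 3 with eBayes without trend. Those among ganglion factors went from 5 to 3 and 0, and to 3 with a mean TPM of at least 5. All were 0 with any 1 pool left out, where fewer samples remain. *Tcf4* changed sign without WT pool 6 (-0.20) and was at 0.71 without WT pool 4. The shallowest library was *Shh-/-* pool 1, at about 18300000 reads, and *Neurog2* and *Nhlh1* rest on 2 reads each in WT pool 6. No paired analysis was possible because the *Shh-/-* and WT pools share no replicate numbers.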
